A study of Homo sapiens with 6 samples.

Results

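Bile acids are made from cholesterol in hepatocytes, joined to an amino acid and pumped into bile. The 9 genes described here encode enzymes and transporters along this path and were taken by name from 20033 protein-coding genes. CYP7A1 and CYP8B1 belong to the classic route of synthesis, in which CYP7A1 catalyses the rate-limiting first step and CYP8B1, a sterol 12-alpha-hydroxylase, directs the product towards cholic acid. CYP27A1 and CYP7B1 belong to the alternative route, which starts with oxidation of the sterol side chain by CYP27A1. SLC27A5 activates bile acids as CoA thioesters and BAAT transfers them to glycine or taurine. SLC10A1 (also known as NTCP) takes bile salts up from the blood, ABCB11 (BSEP) exports them across the canalicular membrane, and ABCB4 (MDR3) delivers phosphatidylcholine to bile.

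The data are genomic positions bound by the paired Tudor folds (Tandem-Tudor domain, TTD) of UHRF1, a human protein needed to maintain DNA methylation. The TTD reads histone H3 methylated at K9, and the study asked where in native chromatin it binds and how H3K4me1, a mark of enhancers, bears on this. A GST-tagged TTD (residues 126 to 280) pulled down mononucleosomes from untreated HepG2 cells, a human hepatoblastoma line, in an assay named CIDOP that resembles ChIP with a reading domain in place of the antibody. Of the 6 libraries, which comprise TTD CIDOP, H3K9me2 ChIP and input with 2 biological replicates apiece, only the TTD replicates enter here. They were merged by the authors into 1 list of 31569 broad peaks with positions and widths but no score. Hence no value below has an error between replicates, the read depth behind a peak is not known from the list, and a lack of peaks is a lack at the authors' cutoff. Expression was not measured in these files, so the activity of the 9 genes in the cells used was not examined.

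Peaks were compared with GENCODE release 44 on hg38, the build of the list. Cover denotes how much of a window, in percent, is occupied by peaks, and 1 shared base counts as overlap. The TSS of a gene is the 5′ end of its canonical transcript, the TSS window spans 2.5 kb on each side of it, and the 100 kb window spans 100 kb on each side. Because the members were named with earlier results of this list in view, counts are set beside the same count over all protein-coding genes without a test.

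TTD peaks lay directly over the TSS of 5 of the 9 bile acid genes, namely CYP7A1, CYP8B1, SLC27A5, BAAT and SLC10A1, while 2.19% of all protein-coding genes had their TSS inside a peak. The same 5 genes were those with any peak in the TSS window, against 16.9% of all genes. Cover of the TSS window was 89.7% at BAAT, 89.0% at SLC27A5, 80.6% at SLC10A1, 77.2% at CYP8B1 and 39.2% at CYP7A1, and it was 0% at CYP27A1, CYP7B1, ABCB11 and ABCB4. With this TSS and window no member lay between 0% and 39.2%, but this gap depended on both choices. With 5 kb on each side, cover was 13.2% at ABCB4, 19.6% at CYP7A1 and 23.7% at CYP27A1, and with the windows of all annotated TSSs of a gene joined it was 32.0% at CYP27A1 and lower, but above 0%, at ABCB4. With the 5′ end of the gene record as TSS the gap remained, but ABCB4 had 71.5% in place of 0%. Cover of 75% or more was present at 4 of 9 members and at 0.839% of all genes. The mean over all genes was 5.19% and the median 0%.

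The promoters differed in their CpG content, which the choice of genes did not use. The 150 bases before the TSS are shown for SLC10A1 and CYP8B1, which have the TSS in a peak, and for ABCB11, which does not, because all 3 are CpG-poor and differ in cover. They were read from hg38 by position and run 5′ to 3′ on the strand of the gene, minus in all 3, with CpG dinucleotides in capitals.
SLC10A1, chr14:69797242-69797391: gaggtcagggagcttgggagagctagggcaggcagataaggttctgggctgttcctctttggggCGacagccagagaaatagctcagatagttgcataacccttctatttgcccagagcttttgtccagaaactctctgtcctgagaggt
CYP8B1, chr3:42875880-42876029: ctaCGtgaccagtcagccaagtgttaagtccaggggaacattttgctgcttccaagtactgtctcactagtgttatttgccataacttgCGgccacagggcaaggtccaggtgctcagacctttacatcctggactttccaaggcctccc
ABCB11, chr2:169031325-169031474: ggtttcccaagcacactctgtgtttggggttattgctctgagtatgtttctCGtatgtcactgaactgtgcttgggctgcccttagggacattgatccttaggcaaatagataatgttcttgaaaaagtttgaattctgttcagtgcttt

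These stretches hold 1 CpG at SLC10A1 and ABCB11 and 2 at CYP8B1. SLC27A5 has 1 CpG in the same stretch and CYP27A1 has 14, and 11.9% of all genes have as few as 1. Peaks covered the whole stretch at SLC10A1, CYP8B1 and SLC27A5 and none of it at ABCB11 and CYP27A1. Within 250 bases upstream, the letters TGTTTAC, a core of FOXA sites, were found on neither strand at any of the 9 genes and in 2.09% of all genes. With so low a share, a lack among 9 genes does not set the members apart. Such a search describes letters and not bound sites.

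Over the 1 kb around the TSS, the 5 genes with the TSS in a peak had a CpG observed/expected ratio of 0.116 (CYP7A1), 0.160 (SLC10A1), 0.184 (CYP8B1), 0.220 (SLC27A5) and 0.288 (BAAT). All of them were in the lowest quartile of protein-coding genes, which ends at 0.408. ABCB11, at 0.125, was the sixth member in that quartile and had no peak at its TSS. The remaining 3 members, CYP27A1 (0.755), ABCB4 (0.791) and CYP7B1 (0.792), were in the third quartile, and none had its TSS in a peak. The TSS lay in a peak for 5.99% of all genes in the lowest quartile and for 0.759% of those in the third. A peak anywhere in the TSS window was present at 14.1% of all genes in the lowest quartile and at 19.6% in the third, the reverse order.

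**Figure D1:**
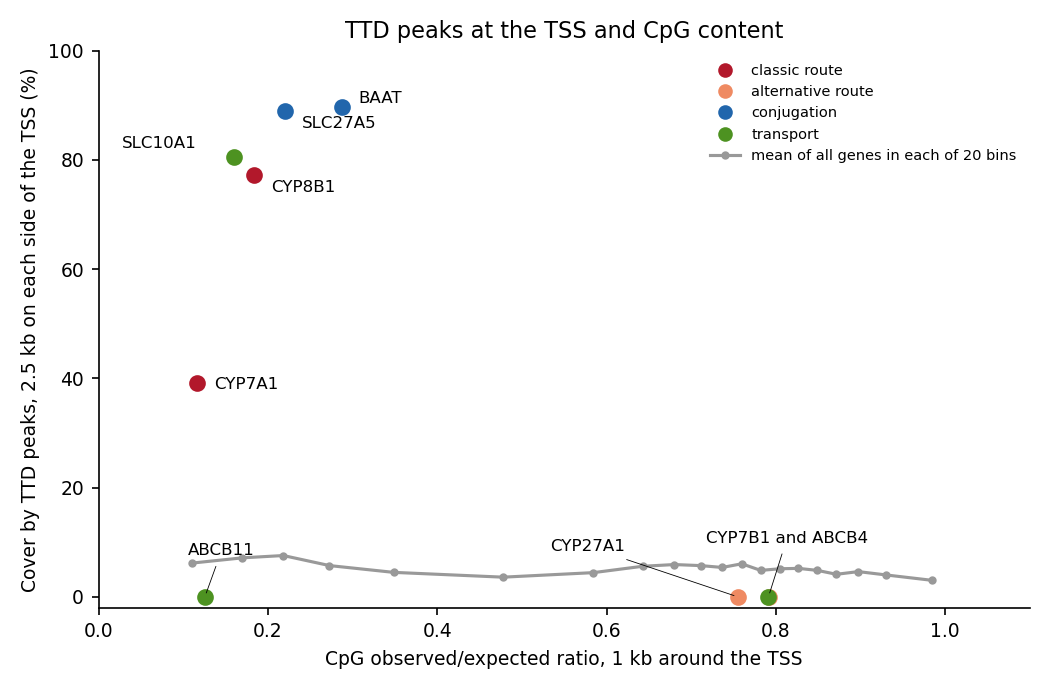
Cover of the TSS window (2.5 kb on each side, in percent) against the CpG observed/expected ratio of the 1 kb around the TSS, with 1 point for each bile acid gene, coloured by role, and a grey line for the mean cover of all protein-coding genes in 20 bins of the ratio. The 5 covered members lie at ratios of 0.116 to 0.288 with cover from 39.2% to 89.7%, ABCB11 lies at 0.125 with 0%, and the points of CYP7B1 and ABCB4 coincide at 0%.

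The 5 covered genes are those with the TSS inside a peak, so the peak crosses the start site by that choice. In each of the 5, the 500 bp on either side of the TSS were covered to 100%. Across the 3394 protein-coding genes with a peak in the TSS window, mean cover was 24.4% in the 500 bp before the TSS and 12.9% in the 500 bp after it, and it rose to 44.7% at 1 to 1.5 kb upstream. Those 3394 genes were not chosen for a peak on the TSS, and 12.9% of them had the TSS itself in the peak. In the lowest CpG quartile, this was so for 300 of the 707 genes with a peak in the TSS window. The peaks began at a similar point upstream of 4 genes, at 2299 bp for SLC10A1, 2291 bp for CYP8B1, 1984 bp for BAAT and 1948 bp for SLC27A5, and at 1157 bp for CYP7A1. Their downstream ends varied more, from 802 bp at CYP7A1 to 6635 bp at BAAT.

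**Figure D2:**
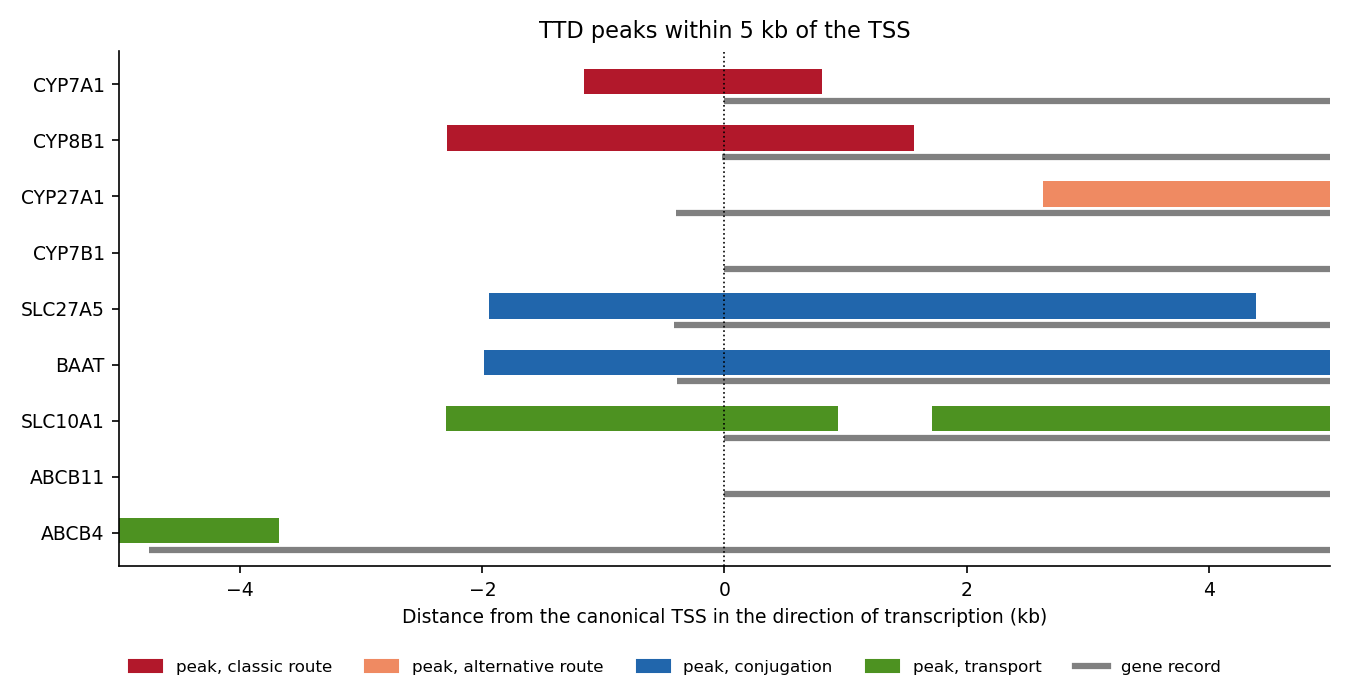
TTD peaks (coloured boxes, by role of the gene) within 5 kb of the canonical TSS of each bile acid gene, with distance in kb in the direction of transcription and the GENCODE gene record as a grey line. A box crosses the TSS at CYP7A1, CYP8B1, SLC27A5, BAAT and SLC10A1, SLC10A1 has a second box that begins 1711 bp downstream, those of CYP27A1 and ABCB4 begin 2634 and 3681 bp away from it, and CYP7B1 and ABCB11 have none.

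Over the gene bodies, 8 of 9 members contained at least 1 peak, against 34.2% of all protein-coding genes. There were 18 such peaks, with a median width of 3875 bp, and 13 of them reached the median width of the whole list, 2250 bp. Of the 18, 10 contained a base of an exon of the canonical transcript and 8 did not. Cover of 25% or more of the gene body was found for 4 members (BAAT, CYP27A1, CYP8B1 and SLC10A1) and for 2.89% of all genes. Median body cover was 15.9% over the members and 0% over all genes.

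Within 100 kb of the TSS, 8 of 9 members had a peak, close to the 77.9% of all protein-coding genes, so the presence of a peak at this range did not set the members apart. The amount of cover varied more. It reached 10% or more at 5 members, against 10% of all genes, with 64.6% at BAAT, 23.7% at SLC10A1, 17.1% at CYP8B1, 15.5% at CYP27A1 and 13.6% at ABCB4. CYP7A1 had 7.48%, SLC27A5 3.17% and ABCB11 0.750%, while no peak was listed at CYP7B1. The median was 13.6% over the members and 2.00% over all genes. The 9 windows held 59 peaks of 1110 to 29790 bp, of which 76.3% reached the median width of the list. With 25 peaks upstream and 29 downstream of the TSS, beside the 5 over it, the peaks were not concentrated on either side.

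**Figure D3:**
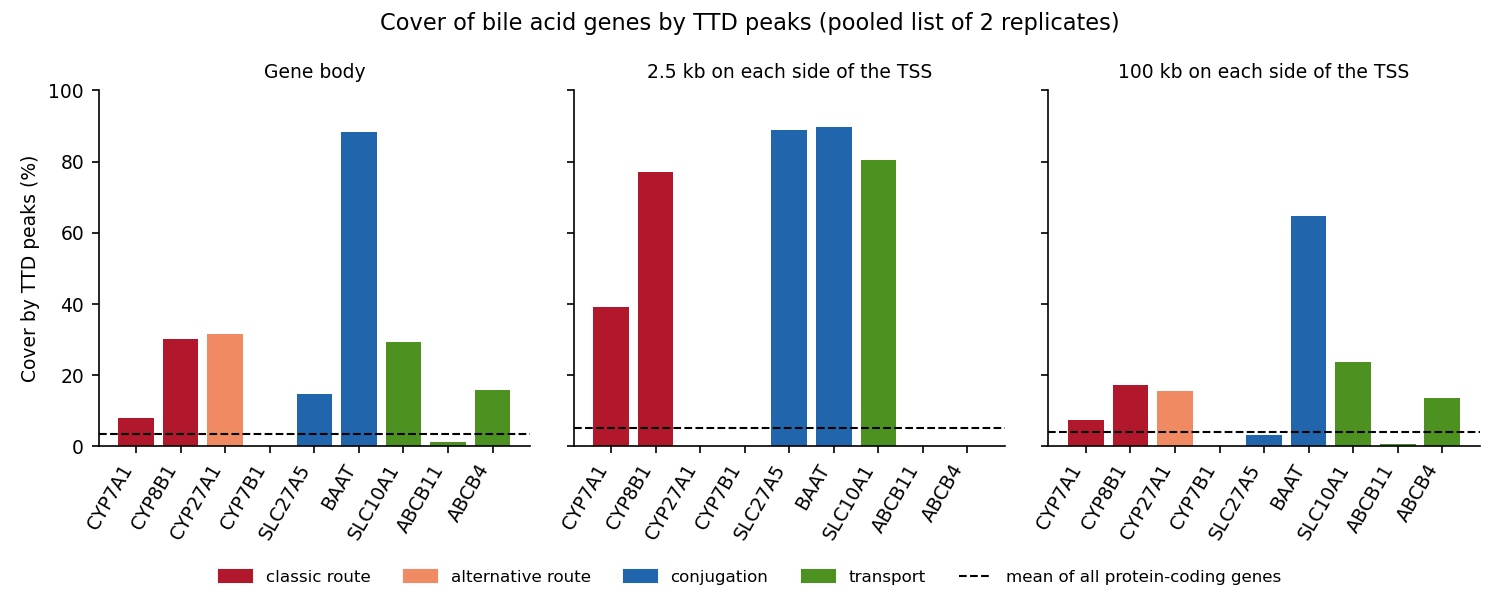
Cover by TTD peaks in percent of the gene body, of 2.5 kb on each side of the TSS and of 100 kb on each side for the 9 bile acid genes, with 1 bar per gene coloured by role and the mean of all protein-coding genes as a dashed line (3.39%, 5.19% and 3.91%). BAAT is high in all 3 windows, SLC27A5 is above the mean over the gene body (14.6%) and at the TSS but not in the 100 kb window (3.17%), and CYP7B1 is at 0% throughout.

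Of the classic route, CYP7A1 (chromosome 8, 58490178 to 58500163, minus strand, 6 exons) had the lowest cover of the TSS window among the 5 genes with a peak there. Its single peak of 1960 bp, from 58499361 to 58501320, reaches from the promoter into exon 1 and intron 1 and covers 8.04% of the gene. This peak is narrower than the median of the list, and 57.3% of all peaks are as wide. The other peaks within 100 kb, of 8650 and 4350 bp, lie beyond the 3′ end of the gene, 15593 and 27163 bp downstream of the TSS, and overlap no protein-coding gene. None was listed upstream.

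CYP8B1 (chromosome 3, 42856005 to 42875898, minus strand) has a canonical transcript of 1 exon and 3688 bp. The peak over its TSS, from 42874311 to 42878170, is 3860 bp wide and covers 100% of the coding sequence and 42.5% of the transcript. A peak of 4410 bp lies in the longer gene record, 5209 bp downstream of the TSS. Altogether 10 peaks occurred within 100 kb, where 3.77% of all genes had cover as high. CYP8B1 lies within ACKR2, a chemokine receptor gene, and 7 of the 10 peaks overlap that gene as well, so the list does not assign them to either.

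The alternative route lacked peaks at the TSS. CYP27A1 (chromosome 2, 218781749 to 218815293, plus strand, 9 exons) was nonetheless covered over 31.6% of its body, a value reached by 1.94% of all genes. Both peaks of the body lie inside intron 1, at 2634 to 9893 bp and at 21774 to 25113 bp from the TSS, with widths of 7260 and 3340 bp. They cover 33.9% of the introns and 0% of the exons. Another 5 peaks lie upstream between 8297 and 49896 bp from the TSS, and 3 of these overlap TTLL4, a tubulin polyglutamylase gene.

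CYP7B1 (chromosome 8, 64587763 to 64798737, minus strand, 6 exons) was the only member with no peak in any of the 3 windows, although at 211 kb it is the longest gene of the set. It lies in a stretch of 443 kb without peaks, from 64519991 to 64963210. The nearest peak to the TSS, 4420 bp wide, begins 164474 bp upstream. Of the 1190 intervals between peaks on chromosome 8, 5.55% were as long, against 3.65% over all chromosomes. CYP7A1 is on the same chromosome, of which 2.63% lies in peaks.

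Both conjugation genes were covered at the TSS but differed in their surroundings. SLC27A5 (chromosome 19, 58479512 to 58512413, minus strand, 10 exons) carried 1 peak of 6340 bp, from 58507601 to 58513940, which spans exons 1 to 3 and covers 51.1% of the coding sequence. The same peak also overlaps ZBTB45, so the list does not assign it to either gene. No other peak lay within 100 kb. Chromosome 19 had the lowest cover of the chromosomes that carry the members, 1.26%. Among its 1476 protein-coding genes, 0.0678% had a TSS window covered as much as that of SLC27A5, which is SLC27A5 alone.

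BAAT (chromosome 9, 101354182 to 101385400, minus strand, 4 exons) was covered most densely. Its 4 peaks take up 88.2% of the gene, including 100% of the exons and 82.6% of the introns. The widest, from 101338451 to 101366320, measures 27870 bp and extends from intron 3 over exon 4 to beyond the 3′ end, and 0.0697% of all peaks are as wide. The peak over the TSS measures 8620 bp. RefSeq places the start of BAAT 1133 and 1442 bp further downstream, and both positions lie in this same peak. In the 100 kb window, 15 peaks covered 64.6%, and only SPTLC3 (69.5%) and TMEM17 (68.5%) had more among all protein-coding genes.

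**Figure D4:**
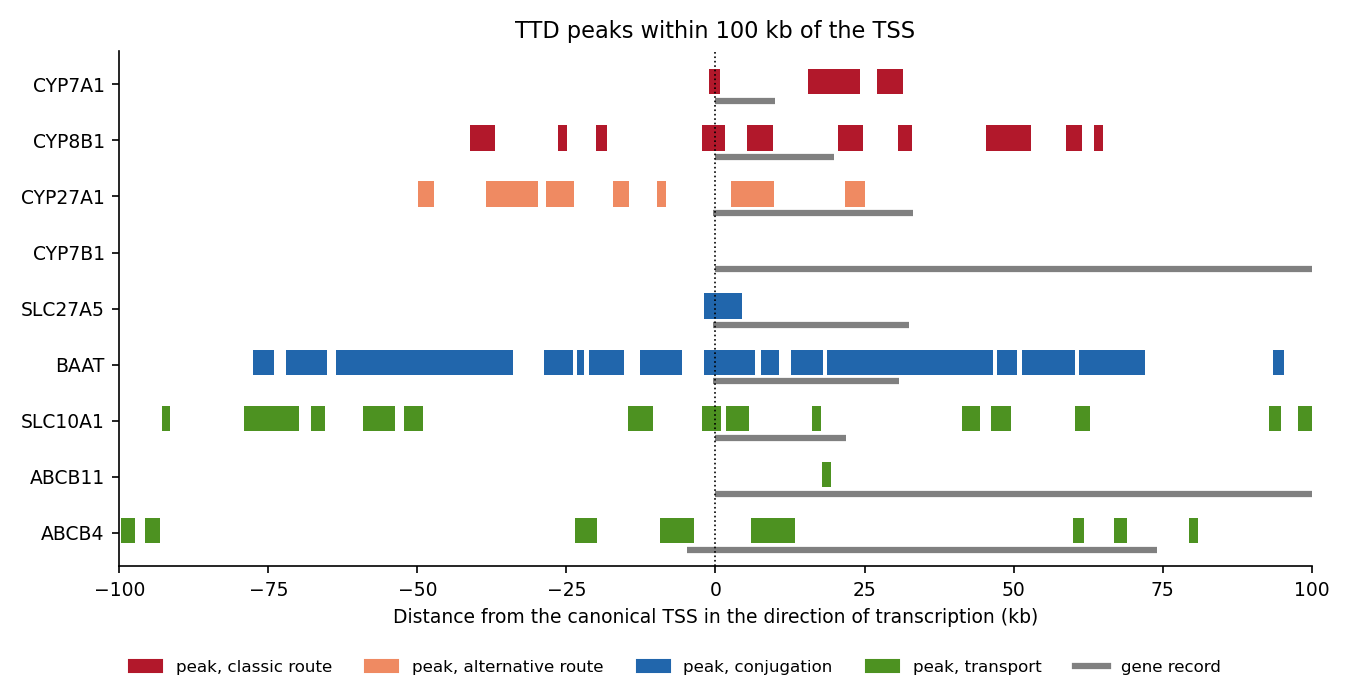
TTD peaks (coloured boxes, by role of the gene) within 100 kb of the canonical TSS of each bile acid gene, with distance in kb in the direction of transcription and the GENCODE gene record as a grey line. BAAT carries 15 peaks over 64.6% of its window, SLC10A1 14 peaks, SLC27A5 a single peak at the TSS, ABCB11 a single peak within the gene, and CYP7B1 none.

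The 3 transporters differed from each other. SLC10A1 (chromosome 14, 69775416 to 69797241, minus strand, 5 exons) had a peak of 3240 bp over the TSS, from 69796301 to 69799540, and a second of 3890 bp in intron 1 that begins 1711 bp downstream. Another peak, of 1560 bp, lies in intron 2. Together they cover 29.3% of the gene. Within 100 kb there were 14 peaks, with cover that 1.41% of all genes reached. The widest, 18960 bp, lies mostly beyond the window in SUSD6.

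ABCB11 (chromosome 2, 168915498 to 169031324, minus strand, 28 exons) contained a single peak of 1500 bp, from 169011971 to 169013470, which overlaps exon 5 and covers 1.30% of the gene. It begins 17854 bp downstream of the TSS. From there, no peak was listed for 235 kb in the upstream direction, to position 169248620. Cover of the 100 kb window was as high at 91.0% of the genes of chromosome 2, so ABCB11 belongs to the sparsely covered genes of a densely covered chromosome.

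ABCB4 (chromosome 7, 87401696 to 87480435, minus strand, 28 exons) had 4 peaks over 15.9% of its body and none in the TSS window. The nearest, from 87479361 to 87485040, lies 3681 bp upstream of the canonical TSS and contains the most upstream annotated start, at 4755 bp. A peak of 7260 bp begins 6020 bp downstream and overlaps exon 4. Of the 12 annotated TSSs of ABCB4, 2 lie in peaks. Its paralogue ABCB1, a drug efflux pump located upstream, holds the 2 farthest upstream of the 8 peaks within 100 kb.

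The chromosomes of the members differ in overall cover, from 1.26% on chromosome 19 to 4.19% on chromosome 14 and 5.67% on chromosome 2. Chromosomes 2 and 14 are known to be present in extra copies in HepG2 cells. The number of copies was not measured here, and its part in the values of CYP27A1, ABCB11 and SLC10A1 was not tested. On chromosome 2, CYP27A1 had 15.5% and ABCB11 0.750% cover of the 100 kb window. Compared with genes of the same chromosome, cover of this window was as high for 1 of 777 genes at BAAT, which is BAAT itself, for 2.78% at CYP8B1, 4.62% at ABCB4, 5.68% at SLC10A1, 11.4% at CYP7A1, 13.5% at CYP27A1 and 91.0% at ABCB11. For SLC27A5 it was as high at 163 of the 1476 genes of chromosome 19, and CYP7B1, at 0%, was at the bottom of chromosome 8.

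Next to BAAT, MRPL50 and ZNF189, which start 13612 and 13845 bp upstream of BAAT, begin next to each other between peaks (CpG ratios 0.725 and 0.686), and their TSS windows were both covered to 45.6%.

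A list of 25 further genes of bile acid synthesis, transport and regulation also had peaks at many TSS windows and, less often, over the start itself. A peak was present in the gene body of 18, against 34.2% of all genes, and in the TSS window of 12, against 16.9%. The TSS lay in a peak at 3 of the 25 (12%), against 2.19% of all genes. By role, the TSS window held a peak at 6 of 10 enzymes, 5 of 10 transporters and 1 of 5 regulators. Among the enzymes, AKR1D1, the steroid 5-beta-reductase, and AKR1C4, a 3-alpha-hydroxysteroid dehydrogenase, had windows covered to 100%. HSD17B4, a peroxisomal enzyme, was covered to 63.7%, AMACR, a racemase, to 31.0%, ACOX2, an oxidase of the side chain, to 24.6% and HSD3B7, a 3-beta-hydroxysteroid dehydrogenase, to 12.2%. Among the transporters, the basolateral exporter subunit SLC51B was covered to 59.4%, the uptake carrier SLCO1B3 to 55.7% and the canalicular pump ABCC2 to 40.2%. The sterol exporters ABCG5 and ABCG8, which start next to each other, both had 20.2%. Of the regulators, NR1H4, the bile acid receptor FXR, had 32.3%, and the other 4 had none. The TSSs inside peaks were those of AKR1D1, AKR1C4 and SLCO1B3, with CpG ratios of 0.158, 0.145 and 0.221. Of the 25 genes, 15 were in the lowest CpG quartile. The TSS lay in a peak at 3 of these 15, against 5.99% of all genes in that quartile. A peak lay in the TSS window of 10 of the 15, against 14.1%. The other 12 of the 15 did not have the TSS in a peak. Examples of these 12 are ABCC2 (0.164), ACOX2 (0.176) and SLC51B (0.181), which had peaks elsewhere in the TSS window.

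Urea cycle genes and coagulation factor genes, as other liver gene groups, are given by counts and medians. The TSS was in a peak for 2 of 8 urea cycle genes and 1 of 8 coagulation factor genes, against 2.19% of all genes. A peak lay in the TSS window of 3 and 4 of them, against 16.9% of all genes. Median cover of the TSS window was 39.2% over the 9 bile acid genes, 0% over the 25 further ones, 0% over the urea cycle genes and 5.40% over the coagulation factor genes. The first of these is the value of CYP7A1 and moved between 0% (wider peaks only) and 90.1% (1 kb on each side) with the settings, which were not varied for the other lists, so no order is read from these medians. Median cover of the 100 kb window was 13.6%, 4.71%, 5.97% and 3.19% in the same order. No test was made between these lists, and each list holds genes with and genes without a peak at the TSS.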

How the data were processed

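HepG2 chromatin was profiled by TTD CIDOP, H3K9me2 ChIP and input in 2 replicates each. According to the methods and the submitters' processing notes, the authors trimmed reads with Trimmomatic 0.38, checked them with FastQC 0.72, mapped them to hg38 with HISAT2 2.2.1, averaged RPKM coverage of both TTD replicates in 10 bp bins with deepTools 3.3.2 and called broad peaks with MACS2 2.1.1 (cutoff 30, linking cutoff 13), followed by blacklist removal and manual curation. The deposited list gives start, end and width in bp. It holds no score, so the depth behind each peak is unknown and no replicate error or test could be derived, and curation by hand can remove wide regions. The separate libraries were not analysed here.

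Gene positions came from GENCODE release 44, with 1 canonical TSS for each of 20033 protein-coding genes outside the mitochondrial genome. The members and lists were chosen with earlier results of these data known. All 9 members are named, as are the further bile acid genes with a peak in the TSS window. Other genes are named where a peak near a member touches them or their TSS, or where their cover exceeds that of BAAT, which was decided after seeing the values. CpG ratios were taken from the 1 kb around each TSS. Interval arithmetic was checked against base-by-base counting on made-up peaks in 200 sets, with 0 mismatches. Alternatives covered peak width, joining of peaks, minimum overlap, choice of TSS and window size. Python 3.11.15, numpy 2.4.6 and matplotlib 3.10.9 were used. Some results on neighbouring genes and upstream sequences are not reported here.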

Additional observations from a re-analysis of the deposited data

How the results depend on the processing

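Each of the 4 counts and 3 medians over the members was recomputed under those of 9 settings that bear on it, and a value was taken as moved when it changed by more than 1.5 times. All 21 recomputed counts stayed within this range, although a count of 8 of 9 cannot rise beyond it. The rule also does not follow the share of all genes. With any annotated TSS, members with a peak in the TSS window went from 5 to 7, and all genes from 16.9% to 24.9%. The number of members with the TSS in a peak was 5 as reported, 4 with peaks of at least the median width (1.54% of all genes), 6 with the 5′ end of the gene record (2.94% of all genes) and 7 with any annotated TSS (7.94% of all genes). The gene lost with wider peaks was CYP7A1, while ABCB11 lost its only peak within 100 kb. The genes gained were ABCB4 and, with any TSS, CYP27A1. CYP7B1 gained a peak within 100 kb from its other annotated TSS or when the window was counted from the gene ends. Of 14 recomputed medians, 4 moved, all for cover of the TSS window, whose reported median of 39.2% is the value of CYP7A1. It became 0% with the wider peaks, 71.5% with the 5′ end of the gene record, 90.1% with 1 kb and 23.7% with 5 kb on each side. No paired analysis was possible because peaks were called on the mean of both replicates and nothing was tested, and for the same reason no replicate could be left out.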

Other observations

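The base composition of the peaks was compared with that of the sequence between them in the 200 kb around each member's TSS. In all 8 members with peaks there, the CpG observed/expected ratio was lower inside the peaks than outside, with 0.158 against 0.243 at CYP7A1, 0.169 against 0.217 at BAAT and 0.255 against 0.367 at SLC27A5, and a near-equal 0.156 against 0.163 at ABCB11 and 0.170 against 0.174 at ABCB4. Over all chromosomes the ratio was 0.209 inside TTD peaks and 0.241 outside, so the direction was not particular to these genes. GC content was higher inside the peaks at 6 of the 8 members, and over all chromosomes it was 42.8% inside and 40.8% outside. The windows of the 8 members contain other promoters, and no test was made.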
